A study of Rattus norvegicus with 12 samples.

Results

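The 6 samples described here are the kidneys of rats that had been given tert-butyl alcohol (TBA) and that were killed under 1 of 2 anesthetics, out of 12 samples in the series. They were chosen by their labels alone: 3 TBA rats were anesthetised with isoflurane, a volatile halogenated ether, and 3 TBA rats with a mixture of carbon dioxide and oxygen (CO2-O2, 4:1). The other 6 samples are the matching vehicle rats, 3 anesthetised with isoflurane and 3 with CO2-O2, which had received water. All were male Sprague-Dawley rats, 5 weeks old when bought, kept under a 12 h light and dark cycle and dosed for 4 weeks, the TBA rats with 1000 mg/kg/day. All 12 were bled to death under the anesthetic 24 h after the last dose, and the renal cortex of each was hybridised to 1 one-colour Agilent rat array. The comparison asks how far the choice of anesthetic at the kill changes the renal transcript levels of TBA-dosed rats. The labels used here do not give the hour of the kill or the time each rat spent under anesthesia, so neither can be told apart from the anesthetic.

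Much of what follows concerns the circadian clock. In mammalian cells BMAL1 pairs with CLOCK or NPAS2 and switches on genes that carry E-box sequences, among them the period (Per), cryptochrome (Cry) and REV-ERB (Nr1d1, Nr1d2) repressors, which feed back on BMAL1 and on its own transcription. The kidney runs this oscillator in its tubule cells, and the PAR bZIP factors DBP and TEF carry the rhythm on to transport and detoxification genes. The levels of these transcripts depend on the hour at which a kidney is taken.

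Levels are given as log2 of the array's processed intensity relative to the 75th percentile of that array, so that 1 unit is a 2-fold difference and a negative value lies below the 75th percentile. Differences are isoflurane minus CO2-O2. Of 61657 probes, those well above background on all 3 arrays of either TBA group were kept, giving 30616 features (11442 genes with a symbol and 19174 probes without one). Each was tested in 1 limma fit over all 12 arrays, with Benjamini-Hochberg adjustment over all features and a threshold of 0.05. A feature is said to be called only when its adjusted p is under that threshold, and the SD is over the 3 rats of a group. Signal from whole cortex does not tell fewer cells of a type from less RNA per cell.

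The 3 arrays of the TBA isoflurane rats were the only ones on slide 3. The TBA CO2-O2 rats 1 and 2 lay on slide 2 with the vehicle isoflurane rats, and TBA CO2-O2 rat 3 lay on slide 1 with the vehicle CO2-O2 rats. Slide 1 was scanned on an earlier day than the other slides. The median local background was 45, 42 and 49 scanner units on the TBA isoflurane arrays, against 26, 26 and 24 on the TBA CO2-O2 arrays and 24 to 27 on the vehicle arrays. Probes well above background made up 63.4%, 64.3% and 61.6% of the TBA isoflurane arrays, against 68.4%, 68.7% and 63.6% of the TBA CO2-O2 arrays and 62.3% to 71.0% of the vehicle arrays. The 62.3% was on a vehicle isoflurane array with a background of 27. Slide 3 and isoflurane in TBA rats cannot be told apart, and the part of the higher background in the results was not tested. In vehicle rats all isoflurane arrays were on slide 2 and all CO2-O2 arrays on slide 1, so there the anesthetic cannot be told apart from slide and scan day.

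**Figure D1:**
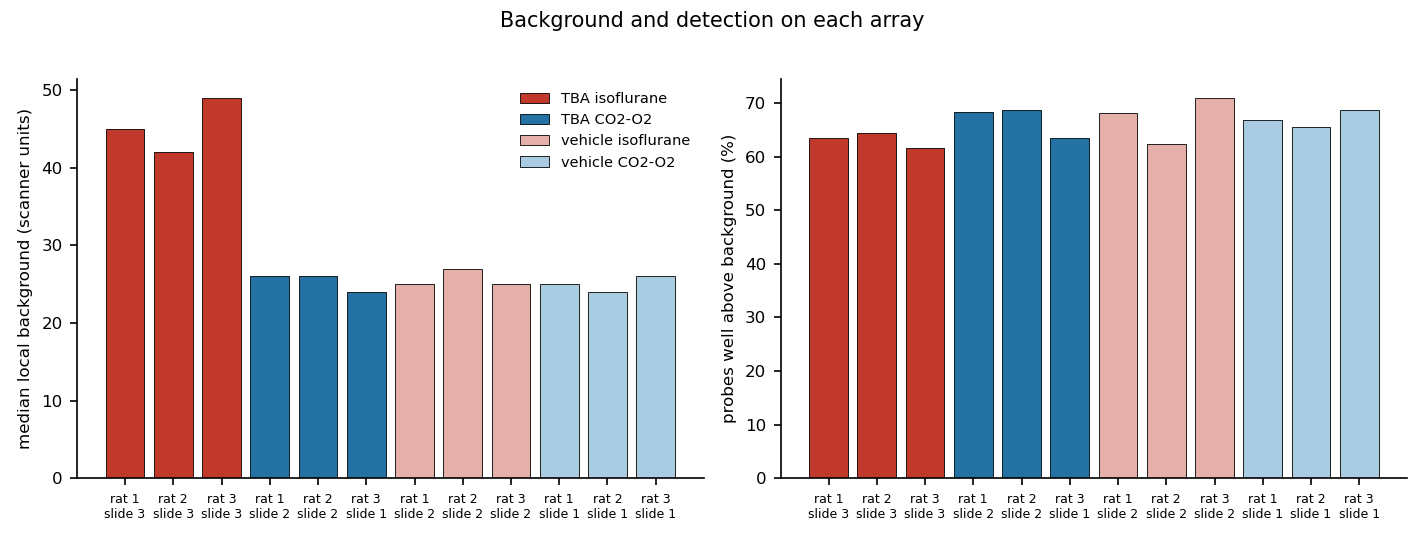
Median local background in scanner units (left) and the percentage of probes well above background (right) on each of the 12 arrays, 1 bar per rat, with the slide under each bar. The 3 TBA isoflurane arrays have backgrounds of 42 to 49 units, and all other arrays lie between 24 and 27.

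In TBA rats, 1 of 30616 features (0.00327%) differed between the anesthetics at an adjusted p under 0.05, and it was higher under isoflurane. It is the probe A_44_P593668, which has no gene name in the files. Its level was -1.04, -0.99 and -1.02 in TBA rats under isoflurane, against -2.22, -2.21 and -2.06 in TBA rats under CO2-O2. The groups were far apart relative to their spread, with a difference of 1.14 ± 0.09 (SE, n = 3 each, limma adjusted p = 0.00548). The same probe was called in vehicle rats, with -0.95, -1.07 and -1.04 under isoflurane against -1.92, -1.74 and -2.11 under CO2-O2, a difference of 0.91 (limma adjusted p = 0.0161). In TBA rats it was called in 22 of 28 alternative settings and kept a difference of 0.91 to 1.20. It missed the threshold when only the 6 TBA arrays entered the fit (limma adjusted p = 0.149), and when TBA isoflurane rat 1, 2 or 3 (0.0534, 0.0622 and 0.0611) or TBA CO2-O2 rat 1 or 2 (0.0642 and 0.0573) was left out.

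Without adjustment, 11.2% of features had a p under 0.05 in TBA rats, 5.66% higher and 5.53% lower under isoflurane. The 3 isoflurane rats lay wholly on one side of the 3 CO2-O2 rats for 15.4% of features, 7.98% higher and 7.46% lower. At least a 2-fold difference in either direction was seen for 258 features (0.843%), and the median absolute difference was 0.11. No named gene passed the adjusted threshold, so the named genes below are described by their values and not as changes. The vehicle rats gave larger numbers by the same fit: 37 features were called (0.121%), 21 higher and 16 lower, 19.2% had an unadjusted p under 0.05 and the groups lay apart for 29.6%. With slide as a random block, 3 of the vehicle features were called in place of 37, and every vehicle value below carries that limit.

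In TBA rats the anesthetic groups lay apart for 3 of 4 clock activators, all lower under isoflurane. They lay apart for 5 of 9 clock repressors, all higher, and of 10 output genes 3 were higher and 1 lower. Some lists outside the clock were larger and held as many such genes or more. Cholesterol and fatty acid synthesis had 6 of 25, all higher. Gluconeogenesis and ammoniagenesis had 3 higher and 3 lower of 25, and the S1 and S2 markers 4 higher and 2 lower of 15. None of the 23 clock genes tested was called, while 12 of the 23 had an unadjusted p under 0.05, and the same 12 were those whose anesthetic groups did not overlap. The background for that count is the 11.2% of all features with such a p and the 15.4% with groups apart. By role, the activators Bmal1, Npas2 and Clock were lower under isoflurane, the repressors Per2, Per3, Nr1d1, Nr1d2 and Ciart were higher, and the output genes split into Dbp, Tef and Wee1 higher and Nfil3 lower. All 12 pointed the same way in vehicle rats, as did 54.5% of all features. In vehicle rats 11 of them again had groups that did not overlap, against 29.6% of all features. All 12 also kept their direction in each of the 28 alternative settings. Some of these, such as leaving out a vehicle array, did not alter the TBA difference. With groups apart, leaving out 1 TBA rat could not reverse a direction. Those settings are therefore no separate support.

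Bmal1 encodes the activator without which the clock stops. Its level was -0.68, -0.86 and -0.84 in TBA rats under isoflurane, against 1.51, 0.82 and 0.32 in TBA rats under CO2-O2. The isoflurane rats were nearly alike and all below the CO2-O2 rats, which spread over more than 1 unit. The difference was -1.68 ± 0.30 (SE, n = 3 each, limma adjusted p = 0.133; 0.0629 to 0.370 over the alternative settings). In vehicle rats Bmal1 stood at -2.68, -3.03 and -2.44 under isoflurane, against -0.54, -0.53 and 0.22 under CO2-O2. That difference of -2.44 ± 0.30 was called (limma adjusted p = 0.0290). Its size did not differ detectably between TBA and vehicle rats (interaction 0.76 ± 0.42, adjusted p = 0.483). A second probe of the gene gave a TBA difference of -1.74.

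The promoter of Bmal1 is shown because the clock's repressors act on that gene through it. The 250 bases before the start of the gene were read from RefSeq's table for the rat build GRCr8 for 19 of the 23 clock genes, the others having no entry in it. They were searched on both strands for the letters CACGTG (E-box), CACGTT (E-box variant), TTATGNAA (D-box, bound by DBP and TEF) and for the element that REV-ERB and ROR proteins share, none of which overlapped another in these genes. The letters of that element were chosen with the Bmal1 promoter in view. It stood in 2 copies in Bmal1, at bases -56 to -46 and -20 to -10 counted from the start of the gene, and in 0.0359% of 33469 rat promoters of the same length. Motifs are in capitals, and Bmal1 lies at chr1:176766078-176766327 on the plus strand.
Bmal1: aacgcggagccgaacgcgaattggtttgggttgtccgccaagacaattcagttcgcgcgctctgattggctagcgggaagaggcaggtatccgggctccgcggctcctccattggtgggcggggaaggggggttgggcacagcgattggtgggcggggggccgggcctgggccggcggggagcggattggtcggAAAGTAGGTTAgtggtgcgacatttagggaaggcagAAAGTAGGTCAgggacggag

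Npas2 encodes the partner that can take the place of CLOCK. It stood at -1.03, -1.00 and -1.00 in TBA rats under isoflurane, against 0.14, 0.06 and -0.30 under CO2-O2. The groups lay apart with almost no spread under isoflurane, and the difference was -0.98 ± 0.20 (SE, limma adjusted p = 0.151), beside -1.00 in vehicle rats. A second, dimmer probe of Npas2 gave 0.01 in TBA rats, so the probes disagree. Clock itself was at -1.52, -1.49 and -1.79 under isoflurane, against -1.42, -1.36 and -1.27 under CO2-O2, a narrow gap of -0.25 ± 0.11 (limma adjusted p = 0.415). Bmal2, a paralog of Bmal1, had overlapping groups and a difference of 0.04. The median over the 4 activators tested was -0.61, against 0.007 over all features, and stayed between -0.66 and -0.36 over the alternative settings.

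Among the repressors, Per3 had the smallest p. It stood at -1.38, -1.31 and -1.32 in TBA rats under isoflurane, against -2.04, -1.70 and -1.87 under CO2-O2. The isoflurane rats were all higher, by 0.53 ± 0.08 (SE, limma adjusted p = 0.107). In vehicle rats the difference was 0.60 and was called (limma adjusted p = 0.0332). The 4 probes of Per3 gave 0.53 to 1.30 in TBA rats. The probe with 1.30 was well above background on only 2 of the 3 CO2-O2 arrays, so its difference rests partly on background signal. Per2, the period gene that light resets in the brain's master clock, was at 0.92, 0.88 and 0.98 under isoflurane, against -0.06, 0.13 and 0.47 under CO2-O2. These groups lay apart as well, by 0.75 ± 0.15 (limma adjusted p = 0.142), beside 1.00 in vehicle rats. Per1 did not follow them in TBA rats: at -1.30, -2.63 and -1.21 under isoflurane against -1.69, -2.50 and -1.67 under CO2-O2, its groups overlapped.

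Ciart, which encodes the repressor CHRONO, had the largest difference of the clock genes. Its level was -2.41, -2.66 and -1.41 in TBA rats under isoflurane, against -5.77, -4.65 and -3.01 under CO2-O2. The groups did not overlap, but the CO2-O2 rats differed among themselves more than for any other clock gene tested. The difference was 2.32 ± 0.59 (SE, limma adjusted p = 0.219), and 2.45 in vehicle rats. The REV-ERB genes also had groups apart, Nr1d2 with a difference of 0.76 ± 0.19 (limma adjusted p = 0.195) and Nr1d1 with 0.85 ± 0.35 (limma adjusted p = 0.409). Cry1, Cry2 and Bhlhe40, which encodes the repressor DEC1, overlapped between the anesthetics in TBA rats with differences of -0.11, 0.08 and 0.20. A second, dimmer probe of Cry2 gave 0.50. The median over the 9 repressors tested was 0.53, and 0.35 to 0.75 over the alternative settings.

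Ciart and Per2 are shown beside Tef because their promoters hold the motifs of the other 2 kinds. An E-box stands before 5 of the 19 genes read, the variant before 4 and the D-box before 1. A gene with more than 1 promoter entry, such as Nr1d1, was counted if any entry held the motif. Among all single rat promoters the shares were 5.59%, 4.07% and 3.28%, so the units differ. Ciart (chr2:186112247-186112496, minus strand) has 3 E-boxes, which start at bases -93, -35 and -21. Per2 (chr9:99496994-99497243, minus strand) has the D-box from base -192 and the E-box variant from base -62, and Tef (chr7:115206577-115206826, plus strand) has 1 E-box from base -198. The promoters printed here all belong to genes with groups apart in TBA rats. The 9 genes with any of the motifs also included Bhlhe40, Lonrf3, Bmal2 and Cry2, whose groups overlapped. The others were Bmal1, Ciart, Nr1d1, Per2 and Tef, whose groups lay apart. Whether a motif goes with a difference was not tested. A match is a description of the letters and not evidence of binding.
Ciart: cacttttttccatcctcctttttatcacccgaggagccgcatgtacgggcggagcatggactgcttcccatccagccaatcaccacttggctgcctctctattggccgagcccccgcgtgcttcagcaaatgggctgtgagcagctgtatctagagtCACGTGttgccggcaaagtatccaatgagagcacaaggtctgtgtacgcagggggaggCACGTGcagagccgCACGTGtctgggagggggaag
Per2: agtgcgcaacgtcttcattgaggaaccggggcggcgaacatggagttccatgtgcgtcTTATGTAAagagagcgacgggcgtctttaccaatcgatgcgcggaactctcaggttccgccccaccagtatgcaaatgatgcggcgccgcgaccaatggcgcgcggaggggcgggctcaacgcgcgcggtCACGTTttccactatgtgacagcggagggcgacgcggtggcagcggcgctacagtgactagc
Tef: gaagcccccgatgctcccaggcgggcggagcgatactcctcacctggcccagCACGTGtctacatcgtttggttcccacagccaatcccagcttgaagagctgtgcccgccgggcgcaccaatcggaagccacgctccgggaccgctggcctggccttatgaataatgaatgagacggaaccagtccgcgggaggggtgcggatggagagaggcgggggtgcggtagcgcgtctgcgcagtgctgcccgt

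Dbp encodes the factor that drives D-box genes. It stood at 5.75, 5.99 and 5.95 in TBA rats under isoflurane, against 3.32, 4.49 and 4.98 in TBA rats under CO2-O2. All isoflurane rats were higher, by 1.63 ± 0.36 (SE, limma adjusted p = 0.160), and its 4 probes gave 1.63 to 1.79. In vehicle rats Dbp was at 6.49, 6.58 and 6.47 under isoflurane, against 5.57, 5.75 and 4.91 under CO2-O2. Tef, its relative, was at 3.65, 3.49 and 3.81 under isoflurane, against 2.65, 3.04 and 3.19 under CO2-O2. Both factors thus lay above the CO2-O2 rats in every isoflurane rat, Tef by 0.69 ± 0.14 (limma adjusted p = 0.142).

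Wee1, a kinase that holds back mitosis, was at 1.14, 1.29 and 1.28 in TBA rats under isoflurane, against 0.66, 0.73 and 1.03 under CO2-O2 (difference 0.43 ± 0.11, limma adjusted p = 0.230). Nfil3, which encodes a repressor that competes with DBP for the D-box, stood the other way at -2.90, -2.92 and -3.27 under isoflurane, against -1.10, -2.32 and -2.20 under CO2-O2. Its difference of -1.16 ± 0.34 (limma adjusted p = 0.269) rests in part on TBA CO2-O2 rat 1, the highest of the 6. The other outputs tested, Klf10, Usp2, Tsc22d3, Nampt, Por and Lonrf3, overlapped between the groups, with differences from -0.33 to 0.28.

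**Figure D2:**
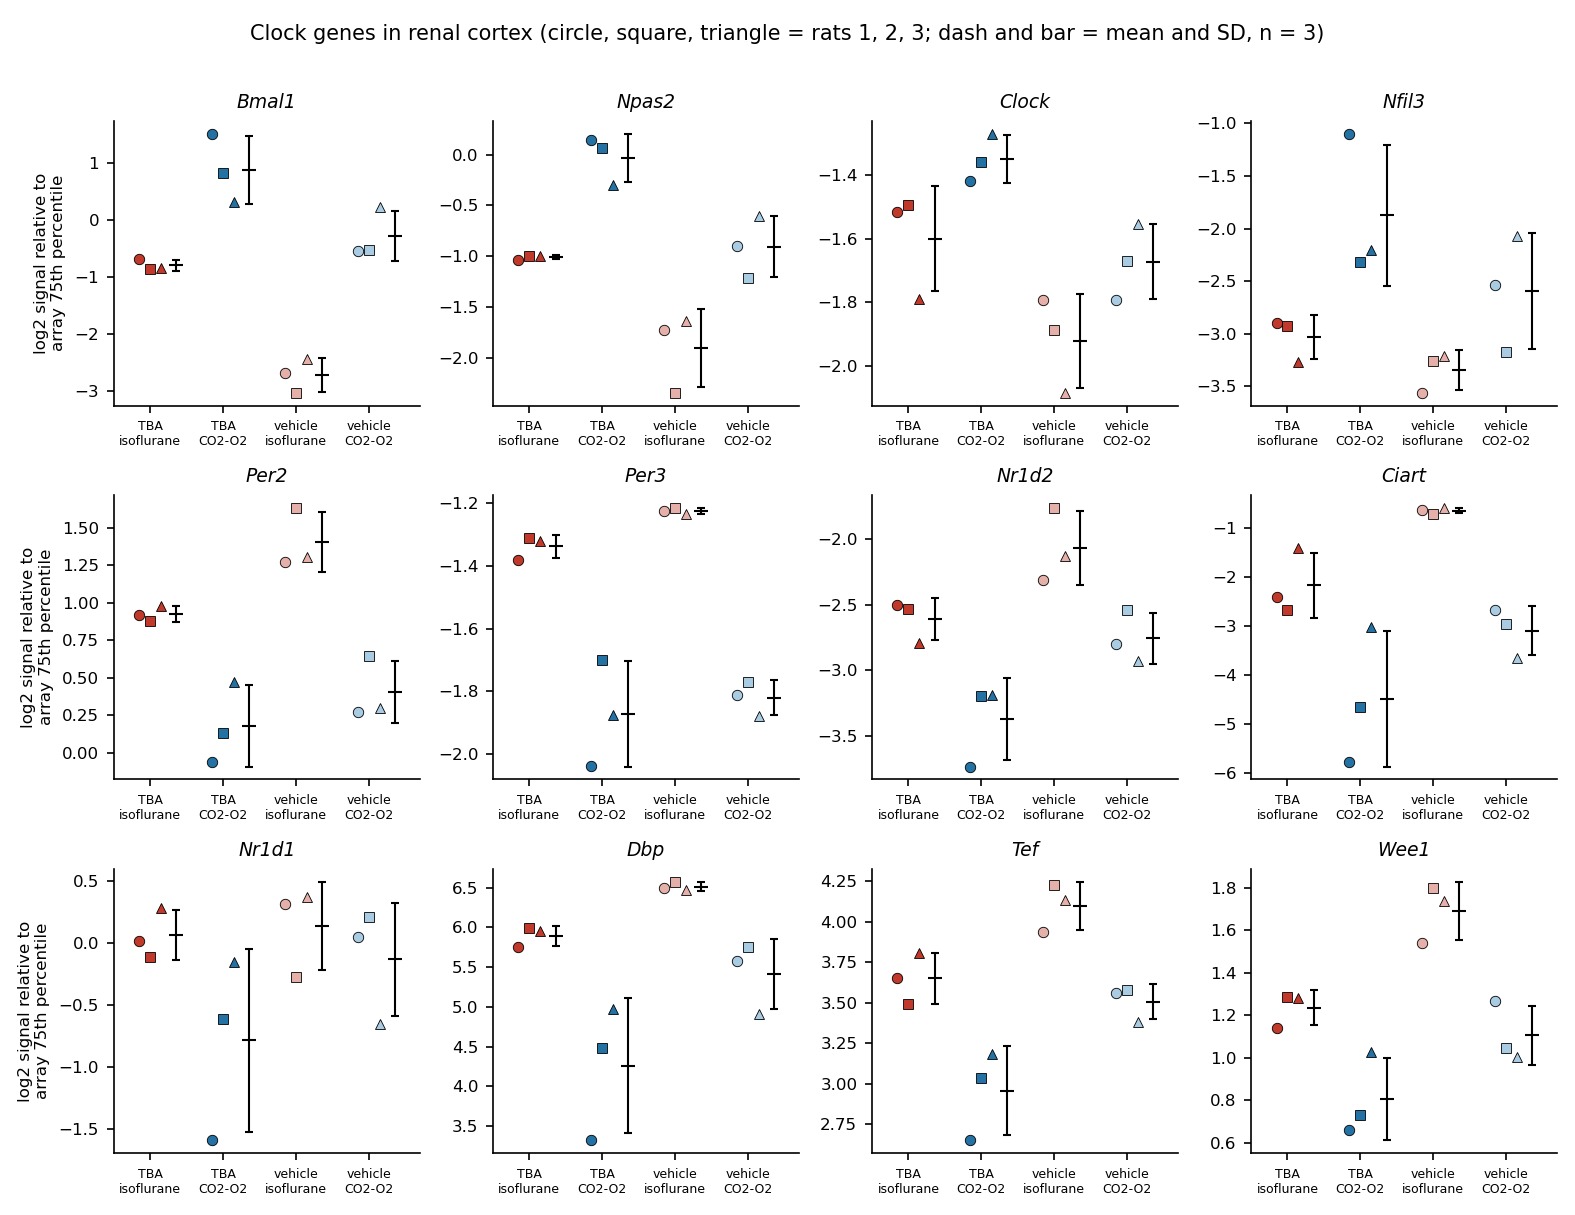
Level of the 12 clock genes with an unadjusted p under 0.05 in TBA rats (y axis, log2 signal relative to the array's 75th percentile; each panel has its own range), with 1 marker per rat and the mean and SD (n = 3) beside each group. The TBA isoflurane rats lie wholly below the TBA CO2-O2 rats for Bmal1, Npas2, Clock and Nfil3 and wholly above them for the other 8 genes.

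The TBA CO2-O2 rats were not alike. For 9 of the 12 genes, rat 3 of that group, the one on slide 1 and scanned on the earlier day, lay nearest to the isoflurane mean. Against TBA CO2-O2 rats 1 and 2 alone, both scanned on the same day as the isoflurane rats, the differences were -1.96 for Bmal1, -1.11 for Npas2, 3.05 for Ciart, 1.99 for Dbp, 0.89 for Per2 and 0.53 for Per3. Rat 3 was the nearest to the isoflurane mean for 5 of these 6 genes. Leaving it out had to make their difference larger than with all 3 rats, so the larger values are no separate support. For Per3, where rat 3 was not the nearest, the difference was the same to 2 decimals. The levels of Bmal1 across the 12 arrays were followed most closely by Slc45a3 (Pearson r = 0.97), a solute carrier gene, and by Npas2 (0.97), Tmem140 (0.96) and Pnrc1 (0.95). These are descriptions over 12 arrays that share the same groups and slides.

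Where the anesthetic difference was not the same in TBA and in vehicle rats, the test is the interaction. It called 0 of 30616 features (limma, smallest adjusted p = 0.0676), although 12.6% had an unadjusted p under 0.05. The clock genes with such a p were Cry1, Cry2 and Por. Cry1, a repressor of the CLOCK and BMAL1 pair, was at -1.34, -1.25 and -1.20 in TBA rats under isoflurane, against -0.70, -1.29 and -1.49 under CO2-O2. In vehicle rats it was at -0.62, 0.04 and -0.56 under isoflurane, against -1.43, -1.36 and -1.34 under CO2-O2. The groups thus overlapped in TBA rats and lay apart in vehicle rats, and the interaction was -1.10 ± 0.29 (limma adjusted p = 0.237).

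Abhd16a, a lipase that hydrolyses phosphatidylserine, shared the smallest adjusted p of the interaction. It was at 3.84, 3.74 and 3.63 in TBA rats under isoflurane, against 4.66, 4.57 and 4.72 in TBA rats under CO2-O2. In vehicle rats it was at 5.26, 4.79 and 4.50 under isoflurane, against 3.81, 3.62 and 3.80 under CO2-O2. The order of the anesthetics was therefore opposite in the 2 arms with no overlap in either, the difference being -0.92 ± 0.16 in TBA rats (limma adjusted p = 0.133) and 1.11 in vehicle rats (called, limma adjusted p = 0.0437). The interaction was -2.03 ± 0.23 (limma adjusted p = 0.0676). Ppargc1a, which encodes the mitochondrial coactivator PGC-1alpha, was at -0.62, -0.85 and -0.76 in TBA rats under isoflurane, against -0.45, -0.40 and -0.44 under CO2-O2. It too ran the other way in vehicle rats, -0.31 ± 0.07 in TBA rats beside 0.43 in vehicle rats (interaction limma adjusted p = 0.112). Gckr, the regulator of glucokinase, had 0.36 in TBA rats and -0.36 in vehicle rats with the same adjusted p for the interaction.

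The 37 features called in vehicle rats come from other animals, but the spread of each feature was estimated once over both arms, so a small p in one arm favours a small p in the other. In TBA rats 26 of them had the same sign (54.5% of all features had), 17 of those with groups apart (15.4% in either direction over all features) and 14 with an unadjusted p under 0.05 (11.2% in either direction), while 5 had the opposite sign with such a p. Stk35, a nuclear serine/threonine kinase, had the smallest p of all named genes in TBA rats. It was at -1.58, -1.53 and -1.55 under isoflurane, against -2.10, -1.95 and -2.23 under CO2-O2, a gap of 0.54 ± 0.07 (SE, limma adjusted p = 0.103) between groups that did not overlap. A second probe of the gene gave 0.27 in TBA rats. Stk35 was called in vehicle rats at 0.72 (limma adjusted p = 0.0161). In TBA rats it was called in 2 of the 28 alternative settings, with median scaling (0.55, limma adjusted p = 0.0466) and with normexp background correction (0.46, limma adjusted p = 0.0466).

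Wsb1, a subunit of a ubiquitin ligase, differed by -0.55 in TBA rats (limma adjusted p = 0.138) and by -0.78 in vehicle rats, where it was called. Slc45a3 differed by -0.67 in TBA rats (limma adjusted p = 0.142) and by -1.00 in vehicle rats, where it was called. Other features called in vehicle rats had overlapping groups in TBA rats. Tnfrsf11b, the osteoprotegerin gene, differed by -2.40 in vehicle rats and stood at 0.02, -1.56 and -1.14 in TBA rats under isoflurane, against 0.00, -0.72 and -0.72 under CO2-O2. Slc34a2, a sodium-phosphate cotransporter, differed by -1.81 in vehicle rats and by -0.26 in TBA rats. The TBA and the vehicle difference had the same sign for 68 of the 100 features with the smallest p in TBA rats. The correlation between the arms across features was weak (Pearson r = 0.097, Spearman rho = 0.125, features not being independent).

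**Figure D3:**
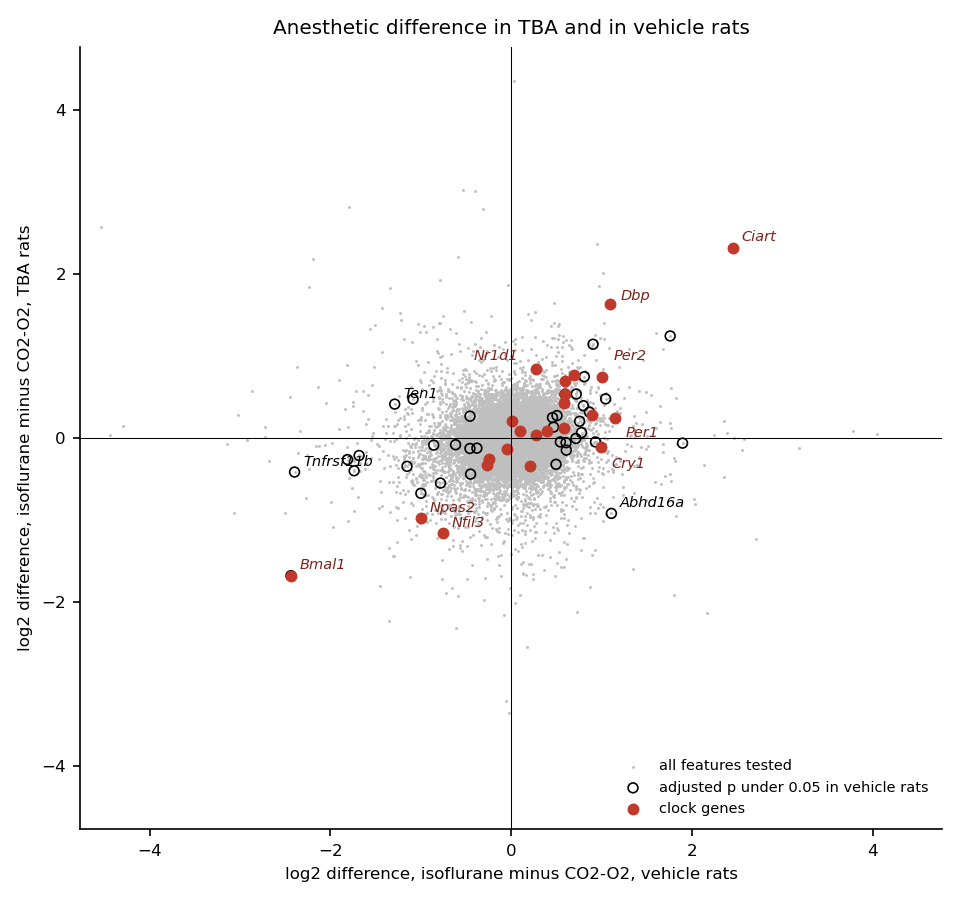
Isoflurane minus CO2-O2 in TBA rats (y axis) against the same difference in vehicle rats (x axis), both in log2 units, with 1 point for each of 30616 features, open circles for the 37 called in vehicle rats and red points for the 23 clock genes. Bmal1, Npas2 and Nfil3 lie at the lower left and Ciart and Dbp at the upper right, Abhd16a lies at the lower right, and Tnfrsf11b lies far to the left with a small TBA difference.

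Of the 258 features with at least a 2-fold difference in TBA rats, 124 had groups that did not overlap, 51 of these were well above background on all 6 arrays, and 20 of these have a symbol, 11 higher and 9 lower under isoflurane. They were picked for their size, so their values are a description, and 9 of the 20 had the same sign in vehicle rats. Bmal1, Nfil3, Dbp and Ciart were among them. Camkv, a kinase-like protein of synapses, was at -2.17, -1.55 and -1.41 under isoflurane, against -2.89, -2.88 and -2.87 under CO2-O2, and the difference in vehicle rats was 0.95. Rbp4, the retinol carrier of plasma, was at 0.84, 0.81 and 1.34 under isoflurane, against 2.91, 1.80 and 2.42 under CO2-O2, while vehicle rats differed by 0.07. Tgfb2, a growth factor of the TGF-beta family, differed by -1.55 in TBA rats and -0.13 in vehicle rats. Rnf125, a ubiquitin ligase that acts on the antiviral RNA sensor RIG-I, differed by -1.04 and -1.01. The vehicle groups of Rbp4 and Tgfb2 overlapped, with an unadjusted p for the interaction of 0.0628 for Rbp4 and 0.0873 for Tgfb2 (limma).

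A probe that was well above background in one group and in none of the other has only a bound. In TBA rats, 192 features were detected on all 3 CO2-O2 arrays and on no isoflurane array, and 2 the other way round. This lopsided count moves with the higher local background of the isoflurane arrays given above, and that background's part in it was not tested. Krt5, a basal keratin of urothelium, was at least 1.60-fold lower under isoflurane (limma adjusted p = 0.224), and Cd163, a scavenger receptor of macrophages, at least 1.32-fold lower (limma adjusted p = 0.434). These p-values belong to the measured signals, which lay at background under isoflurane, and not to the bounds. The other 3 of 4 urothelium markers were positive, and 6 of 14 macrophage markers were, so neither gene stands for its list. The bound sets the mean of the brighter group against the lowest signal that counted as well above background on each array of the dimmer group.

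Outside the clock, 40 gene lists of pathways and cell types with at least 3 tested members had no called member. Their medians ran from -0.22 to 0.28, against 0.007 over all features. The immediate early genes, which respond within minutes to stimulation, stress or tissue handling, had 1 of 21 members with an unadjusted p under 0.05 (4.76%, against 11.2% of all features). That gene was Egr1, at -2.69, -3.02 and -2.70 under isoflurane, against -3.73, -3.60 and -3.17 under CO2-O2, a gap of 0.70 ± 0.24 (limma adjusted p = 0.326) beside -0.19 in vehicle rats. Fos (0.33), Zfp36 (0.46), Atf3 (-0.08) and Nr4a1 (-0.03) had overlapping groups. Among the CREB and SIK feedback genes, 3 of 11 had such a p (27.3%, against 11.2% of all features): Ppargc1a, Creb3l1 (-0.34) and Sik1 (0.32). Sik1, a kinase gene that CREB switches on and that damps CREB's coactivators, was called in vehicle rats at 0.87 but overlapped between the TBA groups.

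Genes of the stress hormones, oxygen and acid-base balance gave small and mixed values. The glucocorticoid targets had a median of -0.01 over 20 members, with Fkbp5 at -0.52 and Sgk1 at -0.16, both with overlapping groups. The hypoxia response genes had a median of 0.05 over 22 members. Of these, Ankrd37 was at 3.17, 3.32 and 3.15 under isoflurane, against 2.51, 2.65 and 2.92 under CO2-O2, a gap of 0.52 ± 0.12 (limma adjusted p = 0.171), beside 0.61 in vehicle rats. The hypoxia targets Vegfa (-0.03) and Adm (0.03) overlapped. Carbon dioxide acidifies the blood. Of 26 carbonic anhydrases and acid-base transporters, 3 had an unadjusted p under 0.05 (11.5%, against 11.2% of all features). Car4, the carbonic anhydrase on the surface of proximal tubule cells, was at 5.35, 5.73 and 5.63 under isoflurane, against 5.03, 4.96 and 5.13 under CO2-O2. Its groups lay apart by 0.53 ± 0.12 (limma adjusted p = 0.163), close to the 0.55 of vehicle rats. Car5b, a mitochondrial carbonic anhydrase, differed by 0.61 in TBA rats and -0.55 in vehicle rats, and Slc4a4, the basolateral bicarbonate cotransporter, by -0.30.

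Of 25 genes of gluconeogenesis and ammoniagenesis, 3 had an unadjusted p under 0.05 (12%, against 11.2% of all features). Pck1 and Glud1, which rise in the acidotic kidney, had -0.06 and -0.04 with overlapping groups. G6pc1, which releases free glucose, differed by -0.44 and Slc16a1, a lactate transporter, by -0.68, both with groups apart. The 31 oxidative phosphorylation genes ran from -0.11 to 0.13 with no unadjusted p under 0.05. The PPAR-alpha targets had 2 of 34 with such a p (5.88%, below the share of all features), Acot12 (-0.25) and Cd36 (-0.44), and ran from -0.57 to 1.01. In cholesterol and fatty acid synthesis 21 of 25 members were positive (51.9% of all features were), with a median of 0.09. Such a p was seen for 4 of the 25 (16%), among them Srebf2 (0.23), Hsd17b7 (0.28) and Mvd (0.31). Second, dimmer probes gave -0.03 for Srebf2 and 0.08 for Hsd17b7.

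TBA is studied for its effects on the rat kidney, and the genes of chemical response were looked at for that reason. Cyp2e1, which metabolises small alcohols and also isoflurane, was at 6.11, 6.36 and 6.61 in TBA rats under isoflurane, against 6.15, 6.21 and 6.27 under CO2-O2, with overlap and a difference of 0.15 ± 0.18. Of the 22 NRF2 targets, the glutathione transferase gene Gsta2 alone had an unadjusted p under 0.05 (4.55%, against 11.2% of all features), at 0.43 ± 0.13. Hmox1, the heme oxygenase gene, was at 2.14 in TBA isoflurane rat 1 and at -1.10 and -1.48 in the other isoflurane rats, against -1.00, -1.32 and -1.12 under CO2-O2. Its difference of 1.00 ± 0.78 thus rests on 1 rat. The tubular injury markers had 0 of 19 members with an unadjusted p under 0.05, beside 11.2% of all features. Havcr1 differed by 0.09, Lcn2 by -1.37, Clu by -0.53 and Spp1 by -0.20. Havcr1 and Lcn2 were well above background on 2 of the 3 isoflurane arrays, so their differences rest partly on background signal. Lcn2 varied between rats, and isoflurane rat 3 alone stood at -5.22. Of the alpha-2u-globulin family, 2 members were tested, Mup5 and Obp3, and both varied from rat to rat within each group.

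Heat shock genes had 2 of 20 members with an unadjusted p under 0.05 (10%, below the 11.2% of all features). Hspa8, the constitutive HSP70 chaperone gene, was at 8.47, 8.34 and 8.28 under isoflurane, against 7.86, 7.97 and 8.08 under CO2-O2. The groups lay apart by 0.39 ± 0.08 (limma adjusted p = 0.142), and its co-chaperone Dnaja1 differed by 0.35. Interferon response genes were positive in 21 of 26 cases (51.9% of all features were) with a median of 0.28. Only Oas2 (0.24) had such a p (3.85%). Their median ran from 0.02 to 0.46 over the alternative settings. Irf7, the regulator of interferon genes, was at 1.27, 2.96 and 1.65 under isoflurane, against 0.42, 1.06 and 1.98 under CO2-O2, so the groups overlapped and isoflurane rat 2 was the highest. The p53 targets, the cytokine and NF-kB genes and the cell cycle genes had no member with an unadjusted p under 0.05. Among channels that volatile anesthetics act on in the nervous system, Kcnk2, the potassium channel TREK-1, differed by -0.68 ± 0.19 and Gabrd, a GABA-A receptor subunit, by 0.35 ± 0.12, both at low signal. Ace, the angiotensin-converting enzyme, differed by 0.55 ± 0.23 (limma adjusted p = 0.413), beside -0.78 in vehicle rats. Igf1, an insulin-like growth factor, differed by 0.50 ± 0.13 in TBA rats (limma adjusted p = 0.211) and by -0.28 in vehicle rats, and the claudins Cldn22 (-0.33) and Cldn24 (-0.26) overlapped.

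**Figure D4:**
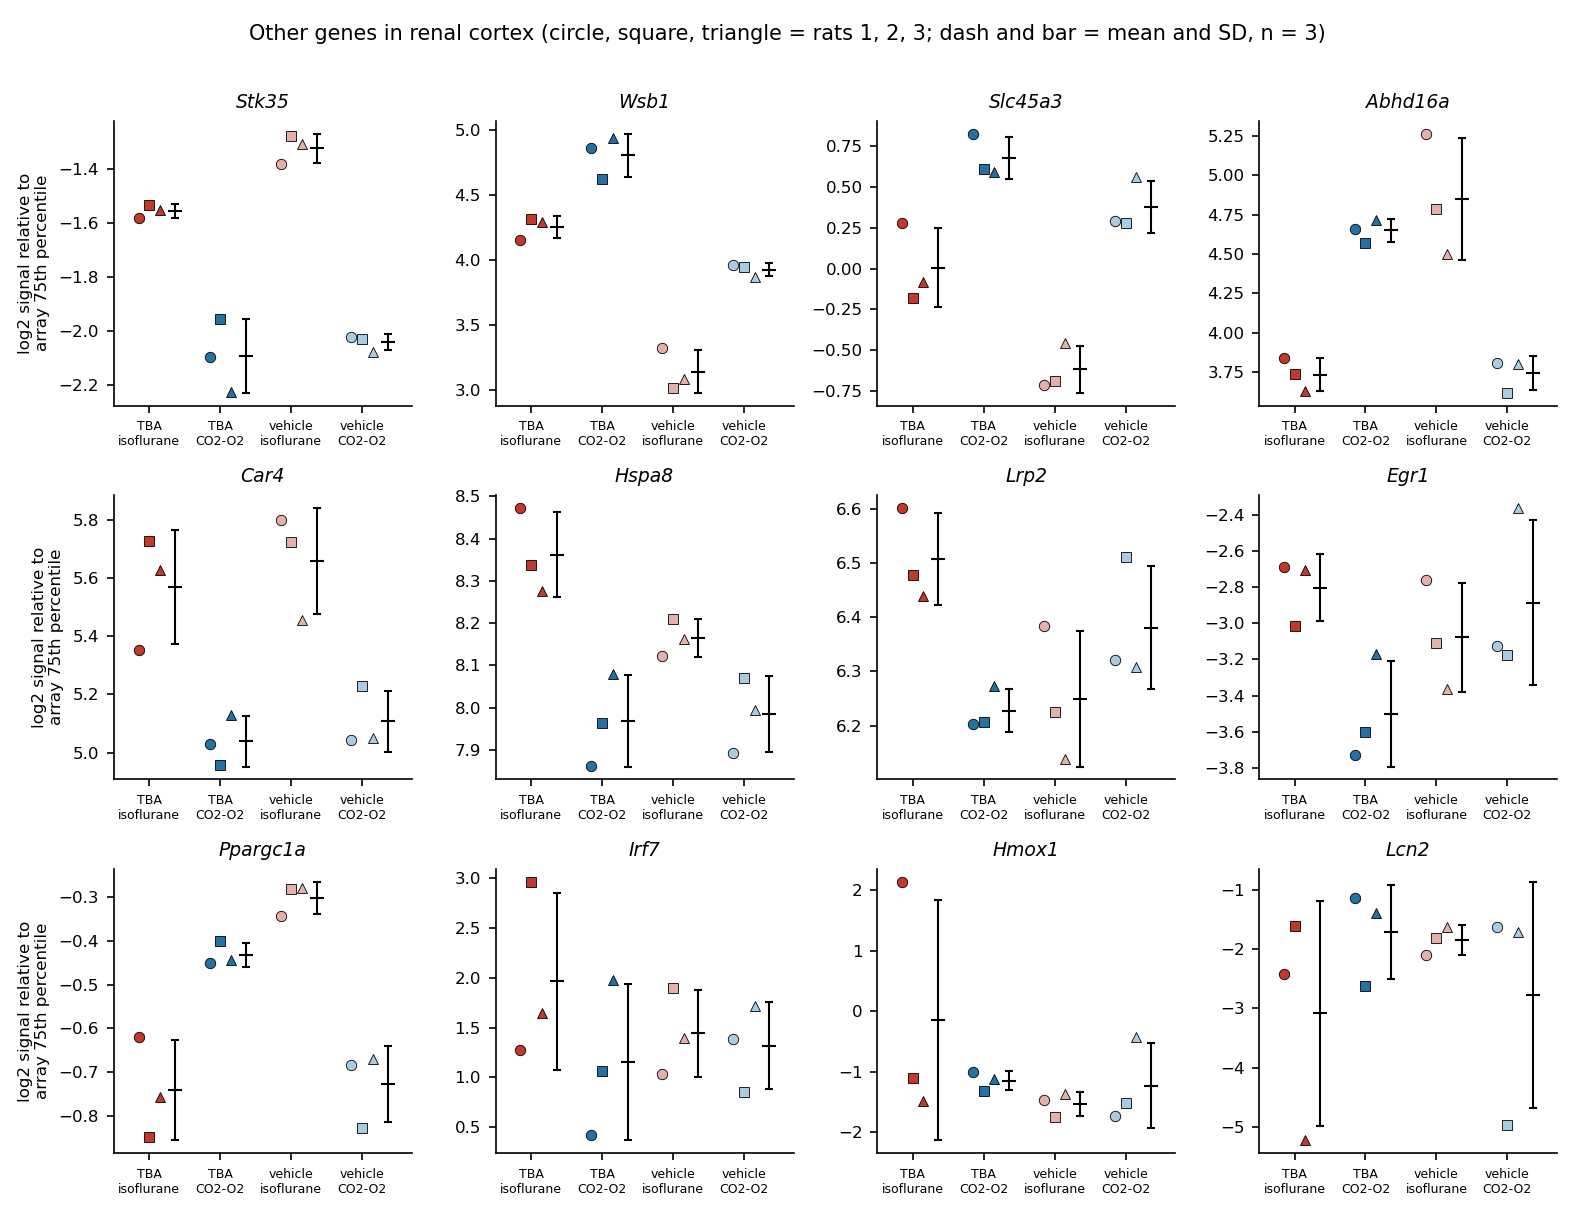
Level of 12 genes outside the clock lists (y axis, log2 signal relative to the array's 75th percentile; each panel has its own range), with 1 marker per rat and the mean and SD (n = 3) beside each group. Stk35, Car4 and Hspa8 lie above and Wsb1, Slc45a3 and Abhd16a below the CO2-O2 rats in every TBA isoflurane rat, while Irf7, Hmox1 and Lcn2 overlap between the groups and vary from rat to rat.

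All 15 markers of the S1 and S2 segments of the proximal tubule, the main tubule of the cortex, passed the filter on dim probes. Of these, 4 had an unadjusted p under 0.05 and were higher under isoflurane and 2 were lower (40%, against 11.2% of all features). Slc34a1, the phosphate cotransporter, was at 8.35, 8.25 and 8.20 under isoflurane, against 8.06, 8.09 and 8.05 under CO2-O2, and Lrp2, the megalin gene, at 6.60, 6.48 and 6.44 against 6.20, 6.21 and 6.27. Both lay apart by small amounts, 0.20 ± 0.06 and 0.28 ± 0.08, with adjusted p of 0.276 and 0.277 (limma). A second probe of each gave less, 0.09 for Slc34a1 and 0.06 for Lrp2. Slc5a12, a lactate cotransporter, differed by -0.36 ± 0.12. The summed signal of the 15 markers, in multiples of the array's 75th percentile, was 1680 to 1811 under isoflurane, against 1536 to 1662 under CO2-O2.

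The 14 endothelial markers were negative in 12 cases and positive in 2 (51.9% of all features were positive), with a median of -0.12. Their summed signal was 83.9 to 95.0 under isoflurane, against 97.8 to 100.2 under CO2-O2. The 12 inner medulla and papilla markers were positive in 10 cases (51.9% of all features were), with a median of 0.16. Their sums were 215 to 248 under isoflurane, against 185 to 214 under CO2-O2. A sum weighs bright members most. The bright member Hmx1 differed by 0.28 on the probe used and by 0.04 on a second, dimmer probe. Fibroblast and smooth muscle markers summed to 50.8 to 52.3 under isoflurane, against 52.8 to 57.0 under CO2-O2. These sums and that of the S1 and S2 markers, 4 of 18 cell-type lists, did not overlap between the anesthetics in TBA rats, beside 15.4% of single features. In vehicle rats the S1 and S2 sums again lay apart and higher under isoflurane, 1421 to 1527 against 1113 to 1404 under CO2-O2. The fibroblast and smooth muscle sums again lay lower, 38.2 to 55.1 against 56.1 to 63.1. The inner medulla sums lay apart the other way, 167 to 192 under isoflurane against 197 to 209 under CO2-O2, and the endothelial sums overlapped. Of the 18 lists, 6 had sums apart in vehicle rats, beside 29.6% of single features. The 9 lymphocyte markers tested were dim and had a median of -0.22, with Cd3g at -0.68 ± 0.20. The 7 neutrophil markers had a median of -0.01 with 3 positive and overlapping sums, although S100a8 and S100a9 differed by -0.93 and -0.91. Of 7 adipocyte markers, Adipoq (0.45), Ucp1 (0.60) and Lpl (-0.31) had an unadjusted p under 0.05 (42.9%, against 11.2% of all features). The list ran from -0.96 to 0.60 and its sums overlapped. S100a8 was well above background on 2 of the 3 isoflurane arrays and Ucp1 on 2 of the 3 CO2-O2 arrays. Each thus passed the filter only through the group where it was higher, and its difference rests partly on background signal. The 11 red blood cell markers had a median of -0.13 with overlapping sums. The part of these markers in the gene differences above was not tested.

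**Figure D5:**
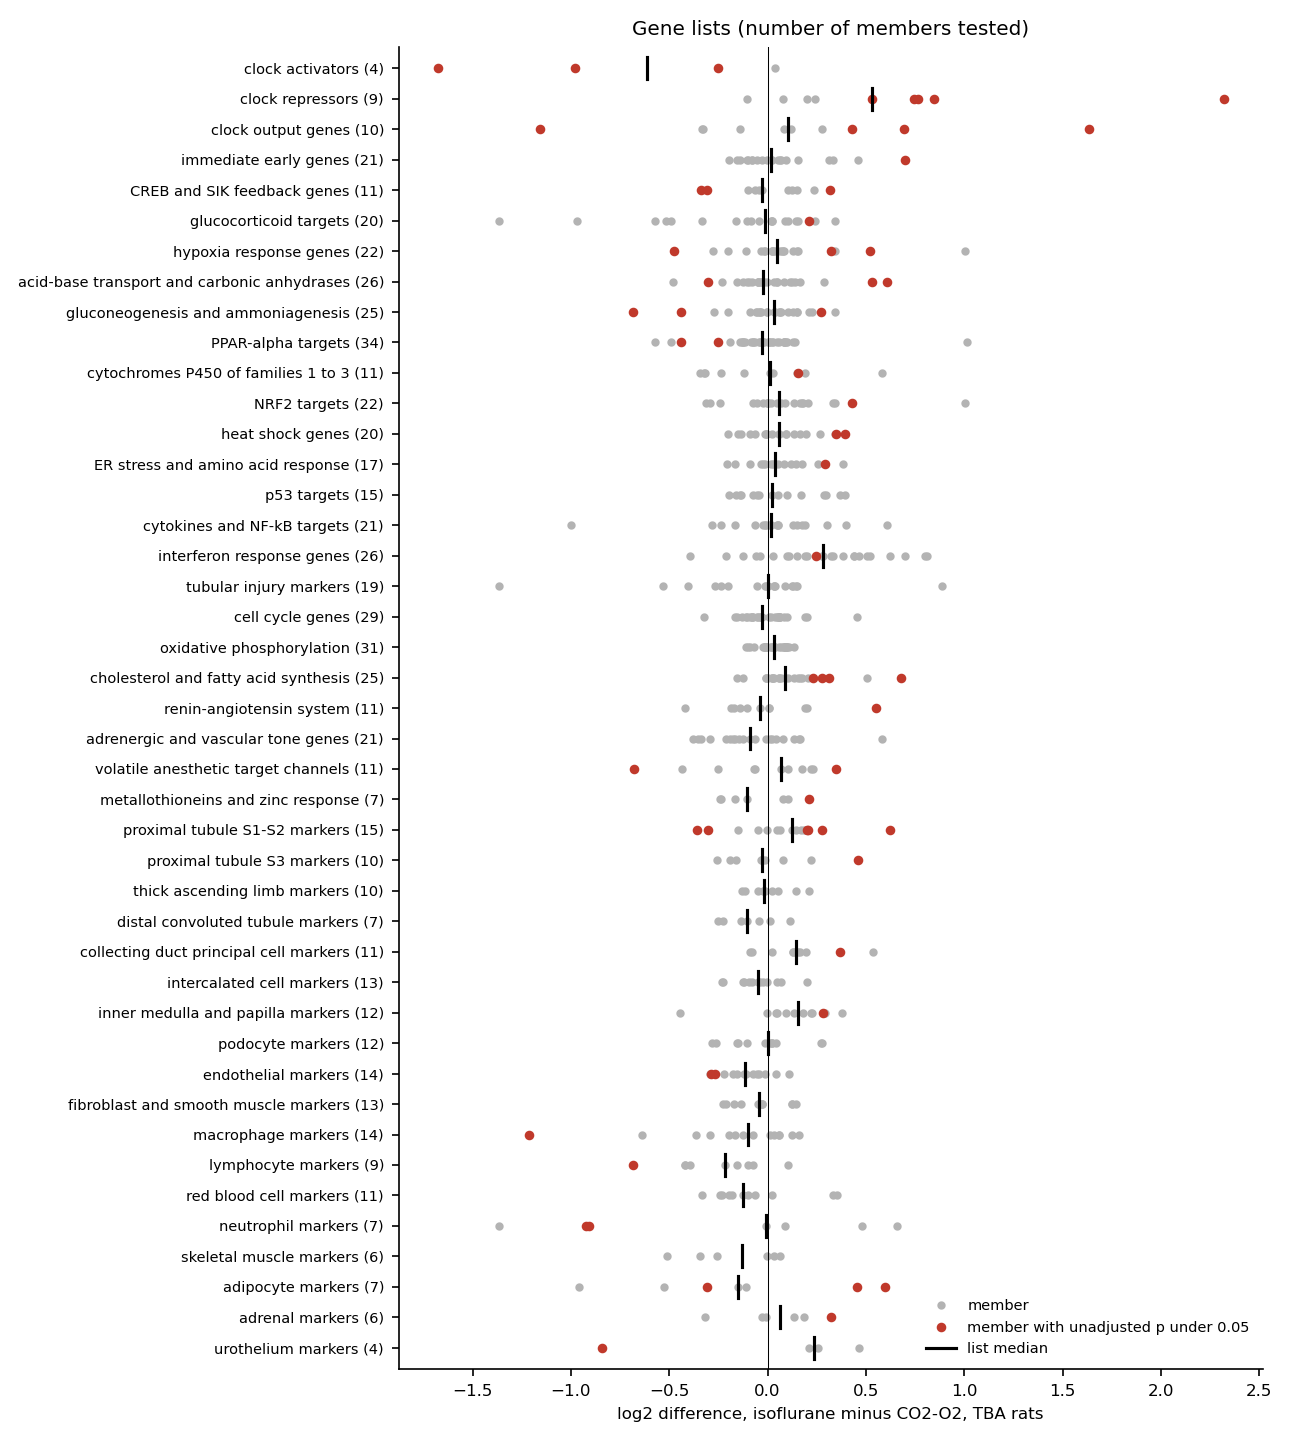
Isoflurane minus CO2-O2 in TBA rats (x axis, log2 units) for the tested members of 43 gene lists (rows, with the number tested), grey for members with an unadjusted p of 0.05 or more, red for those under it, and a black bar at the list's median. Of the clock activators, 3 of 4 lie left of 0, and of the clock repressors, 8 of 9 lie right of it. Their medians are -0.61 and 0.53, and the other medians lie between -0.22 and 0.28.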

How the data were processed

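RNA from the renal cortex of 12 rats was hybridised, labelled with Cy3, to 1 Agilent array per rat. Scanner output was made by the authors with Agilent Feature Extraction 10.7 per the labels, and the file headers give 10.7.1.1. The deposited intensity values used are the processed signals, which that software had already background-corrected, per the file headers. A deposited table of the series holds a ratio of that signal to the array's 75th percentile, found by comparing it with the scanner files. Each of its columns matches a scanner file that carries a different replicate number within its group, so it served as an alternative only and replicate numbers are those of the scanner files. No deposited value was on the log2 scale, to which the authors' intensities were brought here.

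Each array's 75th percentile was subtracted after log2. Control spots and 44 outlier spots were left out, and no spot was saturated. Probes were kept if well above background on all 3 arrays of either TBA group (38887 probes), and the brightest probe stood for a gene. Names came from the arrays' annotation and RefSeq, so that 27460 probes have 1 symbol and 34197 have none. Group means were compared with limma 3.58.1 (lmFit and eBayes) in R 4.3.3 with 8 residual degrees of freedom, and the fit was tested on simulated data. The labels call the rats biological replicates, and 3 per group limit the precision. Exact permutation of 3 against 3 rats cannot go below 0.1, so only the fit across features was used. Named genes were all genes of the clock lists and a fixed set of stress, injury and transport genes, the called features, and in each list the 2 smallest p. Further genes were chosen after their values were seen: those with the smallest p, with at least a 2-fold difference, or called in vehicle rats. The members and lists were chosen with earlier results of these data known. Alternatives in background correction, scaling, filters, slide, scan day, spread and arrays are given in the closing section. A few genes are not reported here.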

Additional observations from a re-analysis of the deposited data

How the results depend on the processing

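The counts of called features depend on the settings. By the reported fit they were 1 in TBA rats, 37 in vehicle rats and 0 for the interaction. Under normexp background correction they were 6, 863 and 7, and with a trended and robust spread 12, 292 and 2. Quantile normalization gave 2 in TBA and 106 in vehicle rats, and median scaling 4 and 57. Without a filter on dim probes there were 3 in TBA and 0 in vehicle rats (5931 unadjusted), and a filter on any of the 4 groups gave 2 in TBA rats. Requiring detection on all 12 arrays gave 71 in vehicle rats and 2 for the interaction. Array weights gave 828 in vehicle rats, slide as a random block gave 3 there, and a 2-fold minimum 12. With scan day as a term there were 6 in TBA rats and 45 for the interaction, a setting in which TBA CO2-O2 rat 3 carries no weight for the TBA difference. The 6 TBA arrays alone gave 0 (limma; 2649 features had an unadjusted p under 0.05). Leaving out 1 array at a time gave 0 to 6 in TBA rats, 0 to 127 in vehicle rats and 0 to 7 for the interaction. In TBA rats the 6 came without CO2-O2 rat 3, and 0 was the count without any 1 of the other 5 TBA rats (2835 to 3603 unadjusted). In vehicle rats the 127 came without TBA CO2-O2 rat 3, and 0 came without TBA isoflurane rat 3, vehicle isoflurane rat 2 or vehicle CO2-O2 rat 3. The interaction gave 7 without TBA CO2-O2 rat 3 and 6 without vehicle isoflurane rat 1. The replicate block gave 2 in TBA and 0 in vehicle rats (5620 unadjusted). Same-numbered TBA rats had deviations from their group means that correlated at 0.154, 0.0982 and -0.00456, and differently numbered rats at -0.224 to 0.113. With means of 3 rats these correlations cannot show whether the numbers pair the rats. The cause of these shifts was not tested. The probe A_44_P593668 and the 12 clock genes with an unadjusted p under 0.05 kept their direction in all 28 alternatives. Leaving out 1 array could not have reversed any of them, as their groups lay apart in TBA rats. Hpse, a heparanase gene, was called with scan day as a term and without TBA CO2-O2 rat 3, at -0.91 (limma adjusted p = 0.0340), against -0.74 in the reported fit. Rtel1 was called in the same settings at 0.59, Slc46a2 without a filter at 2.37, and Or12j3 without a filter or with a filter on any group at -1.81. The median over all features stayed within 0.06 of 0.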

Other observations

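Some genes with small p in TBA rats were not in any list and were picked after their values were seen. Col4a4, a collagen chain of the glomerular basement membrane, was at 1.87, 1.81 and 1.88 in TBA rats under isoflurane, against 2.28, 2.23 and 2.54 under CO2-O2. Its groups lay apart by -0.49 ± 0.08 (limma adjusted p = 0.126), and vehicle rats differed by -0.33. The transcription factor gene Foxp1 was at 2.49, 2.38 and 2.47 under isoflurane, against 2.85, 2.76 and 2.92 under CO2-O2, a gap of -0.40 ± 0.07 (limma adjusted p = 0.129), beside 0.05 in vehicle rats. Sp4, which encodes a factor of the SP family, differed by -0.48 in TBA rats and by 0.03 in vehicle rats. The difference between the arms had an unadjusted p of 0.000839 for Foxp1 and 0.00111 for Sp4, neither of which passed the adjustment over all features (limma adjusted p = 0.201 and 0.212).

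Ten1, which encodes a subunit of the telomere-capping CST complex, stood at 0.09, -0.54 and -0.14 in TBA rats under isoflurane, against -0.53, -0.79 and -0.51 under CO2-O2. These groups overlapped, with a difference of 0.41, while vehicle rats differed by -1.29 (called). The interaction of 1.70 had an adjusted p of 0.112 (limma).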
